A study of Homo sapiens with 8 samples.

Results

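Mitochondrial tRNAs on the plus strand of human mitochondrial DNA, downstream of ND2, the gene of a respiratory complex I subunit, are described here. The 9 genes are MT-TW, MT-TD, MT-TK, MT-TG, MT-TR, MT-TH, MT-TS2, MT-TL2 and MT-TT, which carry tryptophan, aspartate, lysine, glycine, arginine, histidine, serine (AGY codons), leucine (CUN codons) and threonine. They were chosen by position alone, as every plus strand peak of the genome peak lists that overlapped 1 of these genes by at least 1 nt. This took 49 of the 4746 peaks of all libraries, 9 of the 1373 regions left after overlapping peaks were merged, and 9 of the 22 mitochondrial tRNA genes. Each of the 9 genes had a peak in at least 1 library.

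The cells were HEK-293, derived from human embryonic kidney, and were either wild type (WT) or ALKBH1 knock out (KO). ALKBH1 is a dioxygenase that oxidizes 5-methylcytidine in RNA to 5-formylcytidine. Total RNA was fragmented and incubated with ARP, an aldehyde-reactive probe that leaves biotin on 5-formylcytidine, and both a portion set aside after the probe reaction (input) and the RNA bound by streptavidin beads (IP) were sequenced, with 2 libraries in each of 4 groups. All groups, inputs included, had received the probe and the same f5C spike-in oligo. Per the study's methods, knock out cells were made with CRISPR plasmids in HEK293T cells and sorted as single cells, so the KO group may be 1 clone, and whatever else separates the lines cannot be told apart from ALKBH1.

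Human mitochondrial DNA is transcribed into long RNAs in which tRNAs lie between the mRNAs, and cutting the tRNAs out releases the mRNAs. MT-TH, MT-TS2 and MT-TL2 follow each other without a gap between ND4 and ND5, whereas the other members stand alone beside an mRNA. ALKBH1 is known for making 5-formylcytidine at the wobble position, the first anticodon base, of mitochondrial tRNA-Met.

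The gene sequences were read from GRCh38, 5′ to 3′ on the plus strand, with the anticodon in capitals, to show where each called peak lies relative to it. The 3′ CCA added after transcription is not encoded. The coordinates are chrM:5512-5579 for MT-TW, chrM:7518-7585 for MT-TD, chrM:8295-8364 for MT-TK, chrM:9991-10058 for MT-TG, chrM:10405-10469 for MT-TR, chrM:12138-12206 for MT-TH, chrM:12207-12265 for MT-TS2, chrM:12266-12336 for MT-TL2 and chrM:15888-15953 for MT-TT.
MT-TW: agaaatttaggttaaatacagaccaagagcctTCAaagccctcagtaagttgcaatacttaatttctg
MT-TD: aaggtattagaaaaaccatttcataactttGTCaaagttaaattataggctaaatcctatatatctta
MT-TK: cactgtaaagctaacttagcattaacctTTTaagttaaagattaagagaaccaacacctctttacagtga
MT-TG: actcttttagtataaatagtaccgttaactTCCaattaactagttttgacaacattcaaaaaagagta
MT-TR: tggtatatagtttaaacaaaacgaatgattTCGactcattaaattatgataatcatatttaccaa
MT-TH: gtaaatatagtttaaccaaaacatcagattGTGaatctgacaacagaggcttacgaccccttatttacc
MT-TS2: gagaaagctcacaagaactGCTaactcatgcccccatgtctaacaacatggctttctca
MT-TL2: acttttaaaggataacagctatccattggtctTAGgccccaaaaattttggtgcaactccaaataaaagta
MT-TT: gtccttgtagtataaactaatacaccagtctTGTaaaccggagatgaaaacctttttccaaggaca

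The wobble base was T in 6 members, G in 3 and C in 0. In mitochondrial tRNA-Met (MT-TM), a known target of ALKBH1, it is C. The members held between 8 cytosines (MT-TR) and 18 (MT-TS2), and MT-TM also held 18.

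Each value was a peak's cDNA count, the number of unique cDNA molecules in the peak, and no library listed a value below 10. For its crosslinking libraries, run through the same workflow, the paper took sites from stops of reverse transcription. A peak's extent is therefore not taken as the stretch of RNA that its reads cover. Summed over both peak lists, the counts ranged from 94218 to 285539 in the inputs and from 48380 to 65413 in the IPs, and both KO inputs lay above both WT inputs. These sums cover called peaks and are not the sequencing depth, which is unknown here. CPM below is a count scaled to this sum, and a list minimum of 10 counts was between 35.0 and 106 CPM in the inputs and between 153 and 207 CPM in the IPs. A region without a peak had fewer counts than that or did not cluster, and is not taken as absent. No library had a peak on ALKBH1, so the genotype labels could not be checked by its own reads. The region over MT-TI and MT-TM, which holds a known target, had a log2 fold change of IP against input of 3.58 in WT and -0.0031 in KO cells. The lists of tRNA and rRNA references held 0 peaks on mitochondrial references, so the genome lists carried all of the signal described here.

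The members made up 1.89% ± 0.0329 of the WT input and 3.68% ± 0.0988 of the KO input peak counts (SD, n = 2 each). Of the IP peak counts they made up 2.66% ± 0.277 for WT and 4.85% ± 0.321 for KO (SD, n = 2 each). Both KO groups were thus above their WT counterparts by more than the spread between replicates. As a share of the counts on the mitochondrial chromosome, WT and KO inputs had 25.0% ± 0.741 and 31.7% ± 0.871, and WT and KO IPs had 12.1% ± 2.15 and 35.2% ± 2.36 (SD, n = 2 each). The WT IPs stood lowest on this scale, and in these libraries the region over MT-TI and MT-TM was above input (log2 fold change 3.58, SE 0.17, adjusted p 0.000800). Shares were not tested, since 2 libraries a group are too few for an exact test to pass.

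The merged region over MT-TH, MT-TS2 and MT-TL2, called the His-Ser-Leu region below, took the largest part of the members' counts in every library. It held between 44.8% and 46.9% of them in the inputs and between 74.1% and 77.0% in the IPs, with no overlap. MT-TG, by contrast, held between 13.9% and 19.3% in the inputs and between 2.03% and 2.43% in the IPs. MT-TT kept a similar part, between 22.4% and 24.5% in the inputs and between 18.9% and 23.1% in the IPs. The composition of the group therefore differed between input and IP in both genotypes.

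Levels between tRNAs were compared as CPM per nt of gene length. In the WT inputs the order was MT-TT at 65.9 ± 3.39, the His-Ser-Leu region at 43.9 ± 1.91, MT-TG at 38.9 ± 0.424, MT-TD at 19.0 ± 2.39, MT-TW at 14.7 ± 7.01 and MT-TR at 12.4 ± 0.00849 CPM per nt (SD, n = 2 each). MT-TW did not differ from MT-TD or MT-TR beyond its own spread, while the replicates of MT-TD lay above those of MT-TR. In the KO inputs MT-TT at 134 ± 0.484 was followed by MT-TG at 100 ± 8.53 and the His-Ser-Leu region at 84.6 ± 0.321 CPM per nt (SD, n = 2 each). MT-TG thus stood above the His-Ser-Leu region in the KO inputs and below it in the WT inputs. In the IPs the His-Ser-Leu region led, with 99.3 ± 10.0 in WT and 185 ± 8.87 in KO, ahead of MT-TT at 88.3 ± 2.59 and 141 ± 12.4 CPM per nt (SD, n = 2 each). The 2 did not overlap in either line, though the WT means differed by little more than the SD of the His-Ser-Leu region. That closeness depends on the length used, since the region is divided by 199 nt of 3 genes and its WT IP peaks spanned 74 and 77 nt. Per nt of called peak, WT IP replicates 1 and 2 held 18.7 and 11.5 counts there and 10.2 and 7.26 at MT-TT.

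**Figure D1:**
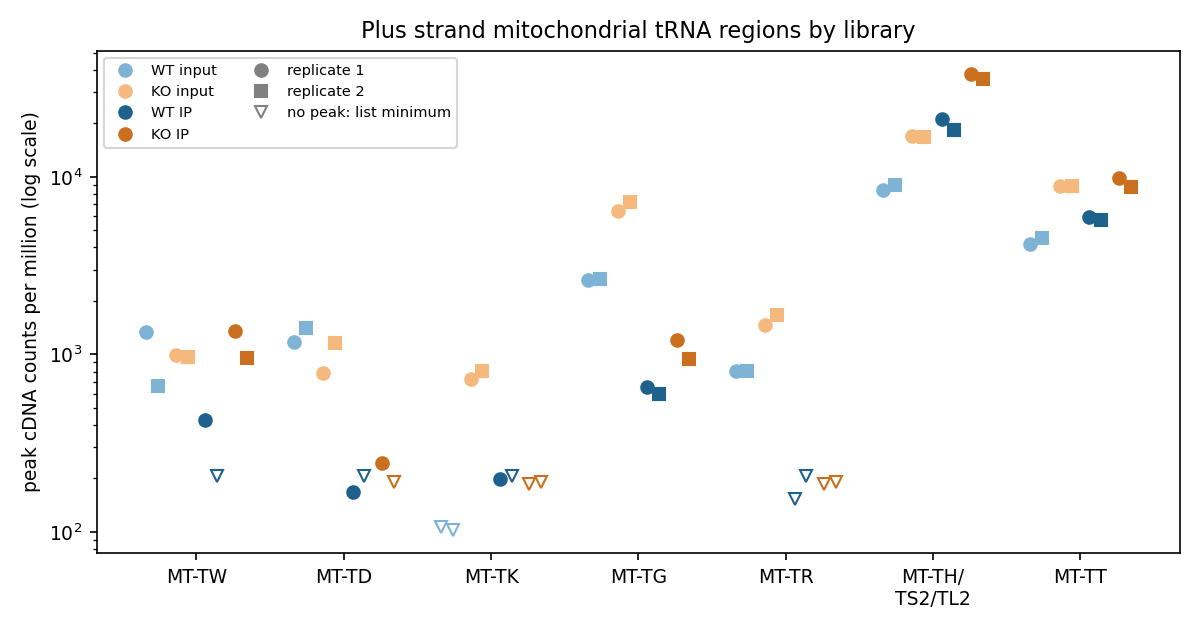
Peak cDNA counts scaled to each library's peak total (CPM, log scale) for the 7 main member regions, with circles for replicate 1 and squares for replicate 2, and open triangles at the list minimum where no peak was called. The 4 MT-TG IP values lie below all MT-TG input values, and every IP value of the His-Ser-Leu region lies above the inputs of its genotype.

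The inputs were compared first, to see how the members differed between the lines without pulldown. For MT-TG, the glycine tRNA, the WT inputs listed 247 and 261 counts and the KO inputs 1249 and 2068. The KO values stayed higher as CPM, with 6832 ± 580 against 2642 ± 28.9 (SD, n = 2 each). The log2 fold change of WT input against KO input was -1.32 (SE 0.09, adjusted p 0.00958 by edgeR's quasi-likelihood test with Benjamini-Hochberg adjustment over all 400 regions tested).

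For the His-Ser-Leu region the WT inputs listed 797 and 882 counts and the KO inputs 3283 and 4794. Its log2 fold change was -0.90 (SE 0.06, adjusted p 0.00958). For MT-TT, the threonine tRNA, WT listed 395 and 442 and KO 1722 and 2541 (log2 fold change -0.98, SE 0.07, adjusted p 0.00958). MT-TR, the arginine tRNA, followed with 76 and 79 counts against 284 and 475 (log2 fold change -0.90, SE 0.12, adjusted p 0.0178). In all 4 regions the WT and KO inputs did not overlap in CPM.

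MT-TW and MT-TD did not pass in the inputs. MT-TW, the tryptophan tRNA, had 126 and 65 counts in WT against 193 and 274 in KO (log2 fold change 0.09, SE 0.38, adjusted p 0.850), and its WT replicates lay on either side of the KO ones in CPM. MT-TD, the aspartate tRNA, had 111 and 138 counts against 152 and 329 (log2 fold change 0.47, SE 0.22, adjusted p 0.165). MT-TK, the lysine tRNA, had no peak in either WT input and 141 and 230 counts in the KO inputs, or 765 ± 56.9 CPM (SD, n = 2), so it was not among the regions tested. Its KO values lay above the list minimums of the WT inputs, 106 and 102 CPM. Of 6 member regions tested, 4 were lower in the WT inputs and 0 higher, with a median log2 fold change of -0.90, where 19.5% of all regions tested were lower, 14.5% were higher and the median over all was 0.00. All 4 calls were lost without either 1 of the KO input libraries, with adjusted p-values from 0.0947 to 0.105 without replicate 1 and from 0.0525 to 0.0976 without replicate 2, while each value stayed between -0.86 and -1.47. The call of MT-TR was also lost with DESeq2 (adjusted p 0.0940), in 1 fit of all libraries (adjusted p 0.0904) and without WT input replicate 2 (adjusted p 0.0571). In total RNA of a culture, fewer cells or mitochondria with a tRNA and less of that tRNA in each cannot be told apart.

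The other mitochondrial tRNA regions moved mostly the same way in the inputs, with 4 of 8 tested lower in WT and 1 higher. Of 9 mitochondrial rRNA regions tested, 2 were lower in WT and 0 higher.

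Pulldown in WT cells was examined next, to ask which members the aldehyde-reactive probe recovered above input. The His-Ser-Leu region, with 797 and 882 counts before pulldown, had 1385 and 888 after it, in libraries whose peaks together held fewer counts. As CPM this was 8728 ± 380 in the inputs and 19764 ± 1993 in the IPs (SD, n = 2 each), with no overlap. The log2 fold change of IP against input was 1.11 (SE 0.10, adjusted p 0.00172).

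MT-TG went the other way in WT cells. From 247 and 261 counts before pulldown it fell to 43 and 29, or 628 ± 41.0 CPM (SD, n = 2), and its log2 fold change was -2.13 (SE 0.17, adjusted p 0.00146). MT-TT had 395 and 442 counts before and 389 and 276 after pulldown (log2 fold change 0.36, SE 0.12, adjusted p 0.0660), with no overlap in CPM. Its call depended on the processing and passed as higher in the IP under 8 of the alternatives, such as RLE factors (adjusted p 0.0491). Of 3 member regions tested, 1 was higher and 1 lower in the WT IPs, where 23.5% of all regions tested were higher and 25.1% lower. The members' median log2 fold change was 0.36 and that of all regions -0.17, or -0.03 with RLE factors.

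Pulldown in KO cells gave values of the same sign for the regions that passed. The His-Ser-Leu region had 3283 and 4794 counts before and 2036 and 1857 after pulldown, or 16834 ± 63.9 and 36865 ± 1764 CPM (SD, n = 2 each). Its log2 fold change was 1.03 (SE 0.11, adjusted p 0.000448), so the region was above input in cells without ALKBH1 as well. MT-TG fell from 1249 and 2068 counts to 64 and 49 (log2 fold change -2.77, SE 0.18, adjusted p 8.26e-05).

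MT-TT had 1722 and 2541 counts before and 528 and 455 after pulldown (log2 fold change -0.03, SE 0.13, adjusted p 0.872). MT-TW had 193 and 274 counts before and 72 and 50 after it (log2 fold change 0.15, SE 0.23, adjusted p 0.617). In CPM the IPs of both tRNAs overlapped their inputs. Of 4 member regions tested, 1 was higher and 1 lower in the KO IPs, where 25.6% of all regions tested were higher and 30.9% lower. The median was 0.06 over the members and 0.04 over all regions. The comparisons within WT and within KO share no library with each other.

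**Figure D2:**
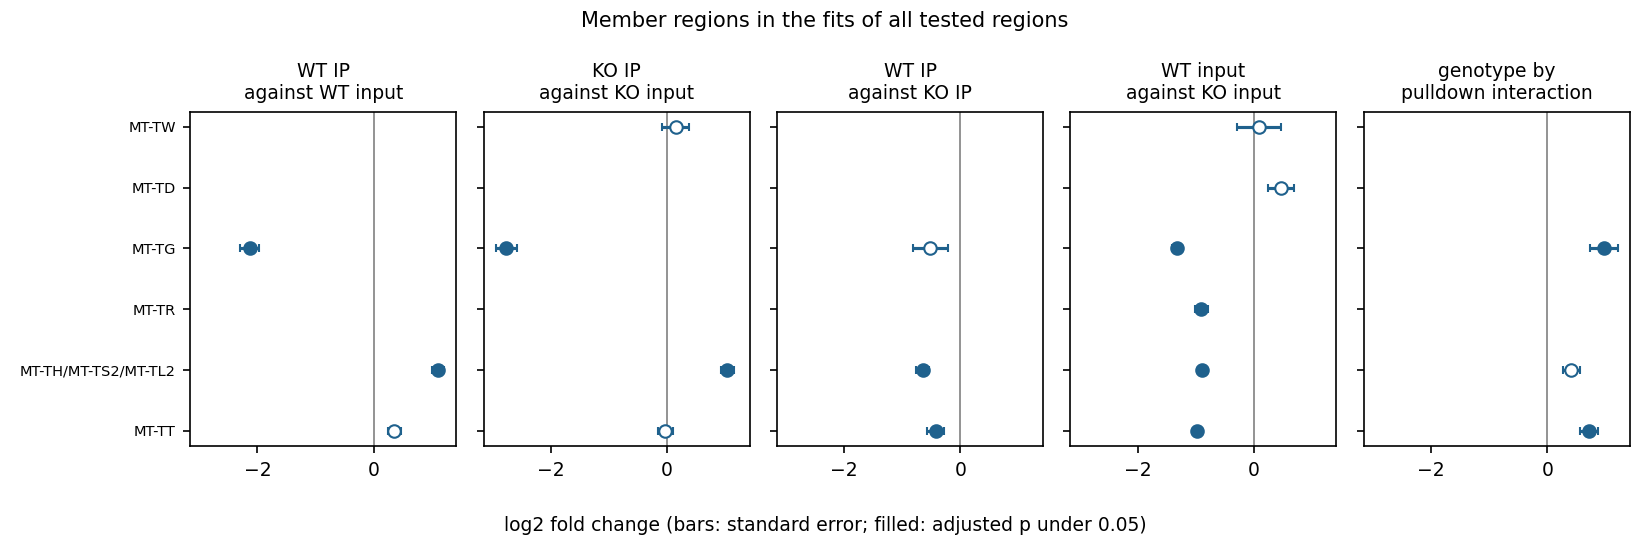
Log2 fold changes of the tested member regions in the 5 comparisons, with bars for 1 standard error and filled points for an adjusted p under 0.05. The His-Ser-Leu region lies near 1 and MT-TG below -2 in the pulldown comparisons of both genotypes, while 4 regions lie near or below -0.90 in the input comparison.

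The IPs of the 2 lines were set against each other to ask whether recovery was higher in cells with ALKBH1. Of 3 member regions tested, 0 were higher in the WT IPs and 2 were lower, where 18.6% of all regions tested were higher and 19.1% lower. The His-Ser-Leu region had a log2 fold change of WT IP against KO IP of -0.65 (SE 0.11, adjusted p 0.00290), with 1385 and 888 counts against 2036 and 1857. MT-TT had -0.43 (SE 0.14, adjusted p 0.0422), with 389 and 276 counts against 528 and 455. The call of MT-TT was lost with DESeq2 (adjusted p 0.161) and without WT IP replicate 2 (adjusted p 0.0793), KO IP replicate 1 (adjusted p 0.415) or KO IP replicate 2 (adjusted p 0.128).

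MT-TG had a log2 fold change of -0.52 between the IPs (SE 0.30, adjusted p 0.244), with 43 and 29 counts against 64 and 49. The member median was -0.52, beside 0.02 over all regions. These IP differences have the sign of the input differences, and MT-TM lay on the other side, with a log2 fold change of its region of 3.32 (SE 0.12, adjusted p 8.07e-07). With the peak totals in place of TMM factors, the split over all regions moved from 41 higher and 42 lower to 28 and 55, and both member calls stayed lower.

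An interaction term over the 8 libraries then compared the IP to input ratio of WT with that of KO cells, and a positive value means a higher ratio in WT. MT-TG had 0.97 (SE 0.24, adjusted p 0.0187), MT-TT 0.72 (SE 0.16, adjusted p 0.0136) and the His-Ser-Leu region 0.41 (SE 0.14, adjusted p 0.0635). Of these 3 regions tested, 2 passed as higher and 0 as lower, where 20.4% of all regions tested were higher and 10.8% lower. With the replicate number as a block the His-Ser-Leu region passed (adjusted p 0.0402), but not with a block for each number within each genotype (adjusted p 0.0649). For MT-TG the pulldown lowered the count in both lines, so the positive value describes a smaller fall in WT. The MT-TG counts came from a called peak of 26 nt in both KO IPs and of 50 nt in the other libraries. The part of that difference in the value was not tested.

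These interactions depended on the scaling. With the peak totals as library sizes MT-TG had 0.61 (adjusted p 0.0744), MT-TT 0.35 (adjusted p 0.0894) and the His-Ser-Leu region 0.05 (adjusted p 0.770), so none passed. The split over all regions moved from 38 higher and 20 lower with TMM to 33 and 32 with RLE factors and 21 and 48 with the totals, and the median over all regions from 0.02 to -0.14 and -0.34. Neither call held without WT input replicate 1, WT IP replicate 1, KO IP replicate 1 or KO IP replicate 2, where the adjusted p-values lay between 0.0565 and 0.0991, and that of MT-TG was also lost without KO input replicate 2 (adjusted p 0.0672). The MT-TI and MT-TM region, at 3.91 (SE 0.19, adjusted p 1.87e-05), lay above the members here, though that gap was not tested.

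The edges of the called peaks also differed between inputs and IPs. Positions are counted from 1 at the first base of the tRNA gene, with the base before it as -1. In the inputs the His-Ser-Leu peak started at positions -1, -3, -1 and -2 of MT-TH. It ended at position 24 of MT-TL2 in all 4 libraries, with a width from 153 to 155 nt. In the IPs it started at positions 9, 6, 4 and 9 of MT-TH and ended at position 13 of MT-TS2, with a width from 74 to 79 nt. The limits of the IP peak thus enclosed the anticodon of MT-TH (positions 31 to 33) and ended before that of MT-TS2, which begins at position 20. Which bases the reads themselves covered is not known from these limits.

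MT-TL2 had a separate IP peak from position 11 to 19 in the KO libraries alone, with 15 and 17 counts, and none in the WT IPs. The anticodon of MT-TL2, from position 33 on, lay in no called peak. The counts of the wide input peaks cannot be divided among the 3 tRNAs, so the IP to input ratio of MT-TH alone is not known and may lie above the value of the region. Scaled to the peak totals, the main peak held 55.3 and 58.0 CPM per nt of called peak before and 286 and 238 after pulldown in WT cells, and 110 and 109 before and 479 and 477 after it in KO cells. Before and after pulldown did not overlap in either line, but the called width that divides these values also fell. It was 153 to 155 nt in the inputs and 74 to 79 nt in the IPs. The part of that change in the values was not tested, so they give no ratio for MT-TH alone.

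At MT-TT the peak began upstream of the tRNA in every input, at position -4, -3, -3 and -3, and inside it in every IP, at position 9, 9, 8 and 8. It ended at position 46 in all 8 libraries, and its limits enclosed the anticodon throughout. At MT-TG the peak ran from position -2 to 48 in the inputs and in both WT IPs, and from 9 to 34 in both KO IPs. The narrowed ends went with the pulldown at MT-TT and MT-TH, and genotype within the pulldown at MT-TG.

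The start of the His-Ser-Leu peak, its end and the start of the MT-TT peak each separated the 4 inputs from the 4 IPs, with a two-sided exact permutation p of 0.0286 each, the smallest that 70 arrangements allow, and 0.0571 after Benjamini-Hochberg adjustment over the 6 edges tested. The 2 edges of MT-TG had an exact permutation p of 0.429 each. Edges were chosen for testing after they had been seen. All 4 IPs had lower peak totals than all 4 inputs, and the part of that difference in the edges was not tested.

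**Figure D3:**
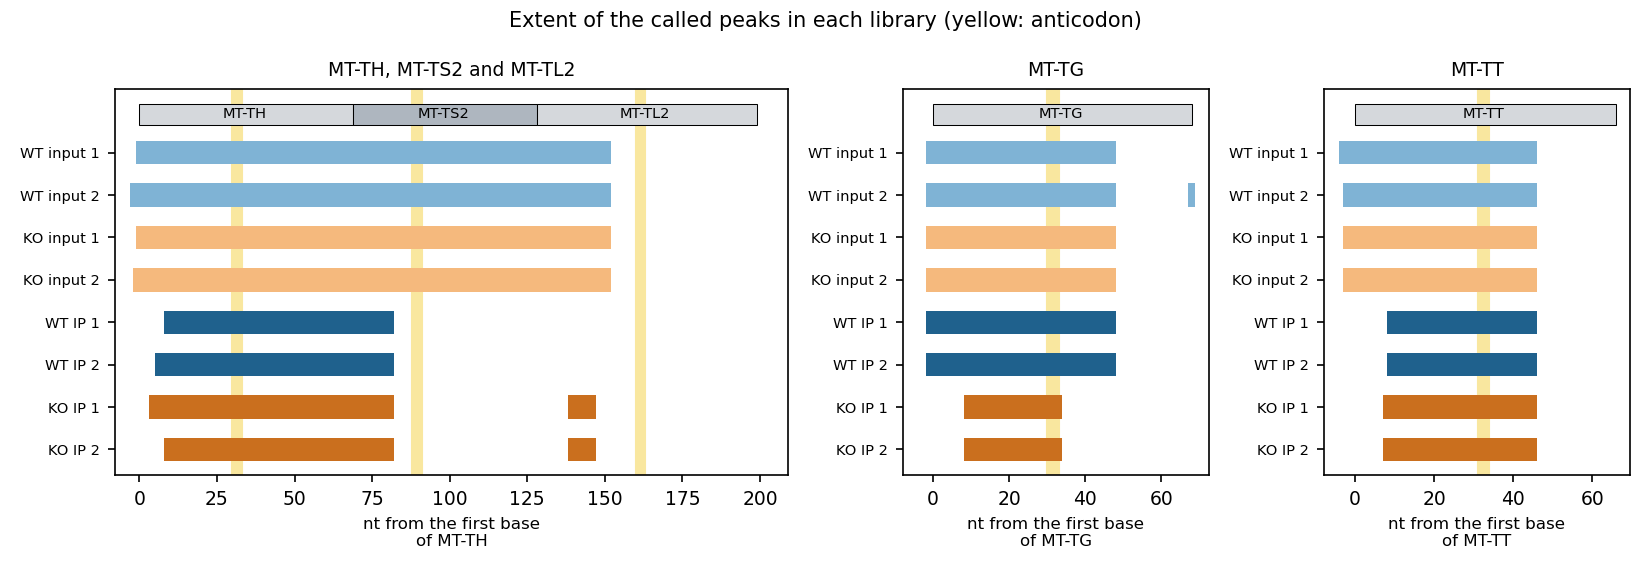
Extent of each called peak in the 8 libraries, in nt from the first base of MT-TH, MT-TG or MT-TT, with the genes drawn above and the anticodons shaded. Input peaks begin upstream of MT-TH and MT-TT and IP peaks inside them, and the IP peaks over MT-TH end in MT-TS2.

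The other members had thin signal in the IPs. MT-TR had no peak in any of the 4 IPs, although its inputs lay at 806 ± 0.552 CPM in WT and 1562 ± 144 CPM in KO (SD, n = 2 each), above the IP list minimum. Its input peak lay only at the 5′ end, from position -3 to 12 at its widest, and its limits took in no part of the anticodon. Whether its reads ran on into the anticodon is not known. The peak is shown here with 3 bases upstream of the tRNA included, at chrM:10402-10416 on the plus strand.
MT-TR peak: aattggtatatagtt

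MT-TD changed shape in the same comparison. In WT input replicate 1 it had 2 peaks, with 101 counts from position -3 to 3 and 10 counts at positions 31 and 32, the first bases of the anticodon. KO input replicate 1 had 152 counts from position -2 to 3, and the other inputs had 1 peak from the 5′ end to position 32. In the IPs only the short peak at positions 31 and 32 was called, with 11 counts in WT replicate 1 and 13 in KO replicate 1.

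MT-TW peaks, merged over the libraries, ran from position 31 to 47, at chrM:5542-5558 on the plus strand. Its anticodon begins at position 33. The input peaks began at position 31 or 32 and enclosed the anticodon. The IP peaks, where called, began at position 35, the last anticodon base, and did not take in the wobble base. The WT IPs had 28 counts in replicate 1 and no peak in replicate 2, so MT-TW was not tested in WT pulldown. MT-TK had 13 counts in WT IP replicate 1 and no peak in the other IPs, and its widest peak, from position 34 to 53 at chrM:8328-8347, began downstream of the anticodon. The MT-TW peak, with the anticodon in capitals, and that of MT-TK are shown to place them within the sequences above.
MT-TW peak: ctTCAaagccctcagta
MT-TK peak: gttaaagattaagagaacca

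A pair of 2-nt peaks completed the members, at the 3′ end of MT-TG with 12 counts in WT input replicate 2 and at that of MT-TR with 10 counts in WT input replicate 1. Each also touched the mRNA that follows, MT-ND3 for the former and MT-ND4L for the latter.

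Several members have near copies in nuclear DNA, where mitochondrial sequence has been inserted during evolution, and reads of such copies cannot always be told apart from mitochondrial reads. Of the 9 members, 8 had at least 1 nuclear stretch of 30 or more identical nt, MT-TT had none, and at 5 members such a copy carried a called peak. The copies of MT-TH and MT-TD are printed because each had a called peak in every IP. They were read from GRCh38 in the direction of the tRNA, with the base that differs in capitals, at chr5:134926590-134926658 on the minus strand and chr1:632689-632756 on the plus strand.
MT-TH copy: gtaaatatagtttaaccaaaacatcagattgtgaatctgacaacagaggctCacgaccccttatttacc
MT-TD copy: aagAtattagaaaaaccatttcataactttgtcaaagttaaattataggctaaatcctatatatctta

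The substitution, written as the base of the mitochondrial gene, the position in the tRNA and the base of the copy, was T52C for MT-TH and G4A for MT-TD. The MT-TH copy lies antisense within PCBD2 and overlaps none of its exons. Its peak, from position 3 to 45 of the tRNA, had 10 counts in WT input replicate 1 and 15 in KO input replicate 2. The WT IPs listed 83 and 18 counts and the KO IPs 92 and 56. It was thus called in all 4 IPs and in 2 of 4 inputs. WT and KO IPs did not differ past the threshold (log2 fold change -0.49, SE 0.52, adjusted p 0.519). Its peak ends before position 52, so the called stretch is identical in copy and tRNA. Reads can run past the limits of a peak, and whether those counted here held position 52 is not known.

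The MT-TD copy lies antisense to the pseudogene ENSG00000230021. It had a peak in all 8 libraries, and these peaks together spanned position 3 to 51 of the tRNA. WT cells had 34 and 39 counts before and 70 and 32 after pulldown, and KO cells 191 and 312 before and 104 and 93 after it. It rose in pulldown by a log2 fold change of 1.12 in WT (SE 0.29, adjusted p 0.0360) and 0.75 in KO (SE 0.18, adjusted p 0.0117), while at MT-TD itself no IP had more than 13 counts. In the inputs it was lower in WT, with -1.40 (SE 0.14, adjusted p 0.0136), where MT-TD had 0.47. Adding the counts of the copy turned the MT-TD value to -0.22 (adjusted p 0.309). The called stretch of the copy, merged over the libraries, holds the differing base. Whether the peak of each library does is not shown here, and not every read counted there need hold it.

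MT-TW and MT-TK have copies of full identity, at chr1:630682-630749 and chr1:633464-633533 on the plus strand. At the copy of MT-TW the inputs listed 22 and 27 counts for WT and 28 and 88 for KO, and the IPs 14 for WT replicate 1 and 26 and 14 for KO. That of MT-TK had 12 and 22 counts in the KO inputs and no peak elsewhere. Like MT-TK itself, the copy was called in both KO inputs and in neither WT input. The list minimum was 106 and 102 CPM in the WT inputs and 51.4 and 35.0 CPM in the KO inputs. A copy at the CPM of the KO inputs would fall below the WT minimum, so its lack of a WT peak shows no difference. That limit does not carry over to MT-TK itself, which lay at 725 and 805 CPM in the KO inputs, above the WT minimum. The copy of MT-TR, with the substitution T13C, at chr5:134928327-134928391 on the minus strand, had 10 counts in KO input replicate 2. With the counts of all copies added to the members, the number of member regions called was 2, 2, 2, 4 and 2 in the WT pulldown, KO pulldown, IP, input and interaction comparisons, equal to the numbers without them.

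**Figure D4:**
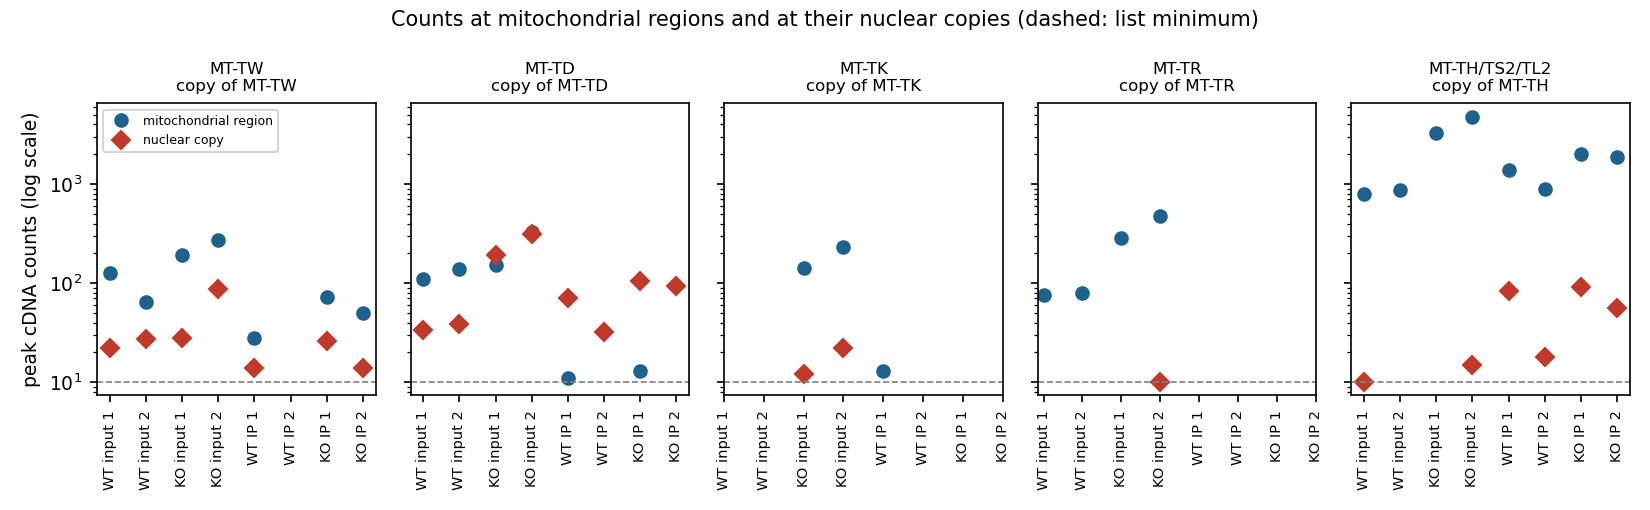
Peak cDNA counts (log scale) in each library at 5 member regions (circles) and at the nuclear copy of 1 of their tRNAs (diamonds), with the list minimum dashed and uncalled values left out. The MT-TD copy exceeds MT-TD in the 2 IPs where both were called and was called alone in the other 2, and the MT-TH copy is called in all 4 IPs but stays far below the His-Ser-Leu region.

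Likeness of pattern was measured as Pearson's r of log2 CPM with the summed members over the 8 libraries, among 183 other regions with a peak in each. The 8 points share 4 groups and their peak totals, so r is a description. The highest value, 0.973, was that of the MT-TD copy on chromosome 1. The region at the end of MT-RNR2 and MT-TL1 (chrM:3104-3275, plus strand), the 16S rRNA and a leucine tRNA, had 0.945, and the cytosolic tRNA-Glu-TTC-2-1 and 2-2 had 0.931. The MT-RNR2 and MT-TL1 region was lower in the WT inputs, with -0.54 (SE 0.06, adjusted p 0.0159), and lower in the WT IPs, with -0.47 (SE 0.10, adjusted p 0.00666).

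Other mitochondrial tRNA regions were mixed in pulldown. In WT cells 3 of 7 tested were higher in the IP and 2 lower, and in KO cells 4 of 9 were higher and 1 lower. Between the IPs, 1 of 8 was higher in WT, that of MT-TI and MT-TM, and 4 were lower, and the interaction passed as higher for 1 of 7 and as lower for 2. Of 5 mitochondrial rRNA regions tested in KO pulldown, 4 were lower in the IP and 0 higher.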

How the data were processed

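The authors ran the iCount consensus mapping workflow, as their methods state, with unique molecular identifiers to discard PCR duplicates. STAR 2.7.0f placed reads on tRNA and rRNA references and then the rest on GRCh38, where only uniquely placed reads were kept. This can remove reads from mitochondrial tRNAs that have nuclear copies. The authors called peaks with Paraclu in each library separately, and each deposited value is an unnormalized count of unique cDNAs in a peak. The spike-in was not used here.

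Peak ends lay within the chromosome lengths of the GRCh38 sequence used here, and gene positions came from GENCODE release 44. Same-strand peaks sharing at least 1 nt were merged over the 8 libraries, and counts were summed per library. Regions with a peak in every library compared were tested with edgeR 4.0.16 (quasi-likelihood test, TMM factors, R 4.3.3) over the whole table, adjusted by Benjamini-Hochberg, with a threshold of 0.05. The study states no test for these lists. The pulldown comparisons used the libraries of 1 genotype, the comparisons between lines those of 1 fraction, and the interaction all 8. The statistics were checked on simulated counts. The study calls its replicates biological. The labels do not tie them to separate cultures, and p-values measure only the spread between these libraries. The list minimums cover counting error only. Alternatives covered the scaling, DESeq2 1.42.0, uncalled regions, count minimums, merging, the replicate number and each library left out. Those on nuclear copies and on a block within genotype and the tests of peak edges were chosen after seeing the data. All 9 tRNAs were named, and other regions by position, by likeness or as nuclear copies. The members and lists were chosen with earlier results of these data known.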

Additional observations from a re-analysis of the deposited data

Results flagged for a closer look

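At 2 of 3 member regions tested the interaction passed as a higher ratio in WT, where 20.4% of all regions tested passed as higher and 10.8% as lower. MT-TG had an interaction of 0.97 on the log2 scale (SE 0.24, adjusted p 0.0187 by edgeR's quasi-likelihood test), with pulldown values of -2.13 in WT and -2.77 in KO cells. MT-TT had 0.72 (SE 0.16, adjusted p 0.0136), with 0.36 in WT and -0.03 in KO cells, neither of which passed on its own. All 3 regions tested had a positive interaction, and with the peak totals as library sizes neither value passed. Both calls also depended on single libraries, as given above. At MT-TG the called peak was 26 nt wide in both KO IPs and 50 nt wide in the other libraries. The part of that difference in its interaction was not tested.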

How the results depend on the processing

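Of 308 member fold changes under alternatives, 251 kept direction and side of the threshold. With uncalled regions at 0 the member regions called were 4 in WT pulldown, 4 in KO pulldown, 1 between the IPs and 0 in the interaction, and with uncalled regions at the lowest listed count 5, 5, 2 and 1, where more regions were tested. A peak in 2 libraries was enough there, so MT-TR entered both pulldown comparisons on its input peaks alone. Its direction then follows from the filled IP values. The counts of this paragraph stand without shares over all regions and are not read as results about the members. Peaks above 100 counts gave 1 in KO pulldown, 1 between the IPs and 1 in the interaction, DESeq2 gave 1 and 1 in the last pair, a mean count of 50 gave 1 between the IPs, sums per mitochondrial gene gave 1 in the interaction, and the peak totals gave 0. Leaving out 1 library gave between 2 and 4 regions in WT pulldown, between 2 and 3 in KO pulldown, between 1 and 2 between the IPs, between 0 and 4 in the inputs and between 0 and 3 in the interaction. The cause of these changes was not tested apart from the numbers of regions and libraries.

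Values that turned sign had not passed. MT-TT in KO pulldown, at -0.03, became 0.024 with RLE factors and with DESeq2, 0.068 with peak totals and 0.17 with a mean count of 50. MT-TW in KO pulldown became -0.11 with uncalled regions at the lowest listed count and lay between -0.030 and 0.29 with 1 library left out, the lowest without KO IP replicate 1. MT-TW in the inputs became -0.044 and -0.093 with uncalled regions at 0 and at the lowest count and -0.088 in 1 fit of all libraries, and lay between -0.51 (without WT input replicate 1) and 0.50 with 1 library left out. MT-TD in the inputs became -0.22 with nuclear copies added.

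With the replicate block the counts were 2, 2, 2, 4 and 3 in the WT pulldown, KO pulldown, IP, input and interaction comparisons, the added call being the His-Ser-Leu region (0.41, adjusted p 0.0402). With a replicate block within genotype, added after seeing the data, 2 passed in the interaction and that region did not (0.41, adjusted p 0.0649). Per the methods an input and its IP come from 1 probe reaction, but the labels do not say that a number marks it. For lack of such a label the numbers were not taken as pairs. Deviations of same-numbered libraries correlated at 0.497 between WT input and IP and 0.242 between KO input and IP. Between the lines, which share no reaction, the correlations lay between -0.0446 (KO input and WT IP) and 0.445 (WT input and KO IP). These correlations do not decide whether a number marks a pair. Of the 24 alternative group shares, 12 moved by over 1 SD, mostly by the choice of denominator. MT-TW, MT-TD, MT-TK and MT-TR lacked a peak in at least 1 library of WT pulldown and were not tested there.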
